A study of Mus musculus with 6 samples.

Results

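Olfactory receptors are the G protein-coupled receptors with which sensory neurons of the nose detect odorants, and they form the largest gene family of the mouse genome. A sensory neuron normally transcribes a single receptor gene from a single allele, and the receptor signals through the G protein subunit Gnal and the cyclase Adcy3 to a cyclic nucleotide-gated channel. Outside the nose most of these genes are silent, and the coding part of a receptor gene lies in 1 exon, in clusters of similar neighbours. The array carried 1101 probes for 1075 of them, and 315 probes of 314 genes gave a signal well above background on all 3 arrays of a group of microglial BV2 cells. These 315 probes were selected on the detection flag of the scanner software in the same arrays that are described here, so their presence above background is not a finding, and their counts and medians below are descriptions with no test.

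The data were 6 Agilent 1-colour arrays of total RNA from BV2, a mouse microglial cell line, treated with lipopolysaccharide (LPS) in all 6 samples. There were 3 control samples, labelled without PGC-1α, and 3 samples labelled with PGC-1α overexpression, which the study's methods produced with lentivirus. Replicates 1 and 2 of each group were on 1 slide and replicate 3 of each group on another, and nothing in the labels says that the 3 samples of a group came from separate cultures, so p-values measure only the spread between these samples. Ppargc1a, the gene of PGC-1α, has 2 probes, neither of which passed the background flag on more than 2 arrays of either group, with log2 intensities of 3.18 to 4.45 in controls and 3.18 to 4.48 in the samples labelled overexpression. The labels were therefore not borne out by this transcript's probes, whose position relative to the introduced sequence is not given, and the second group is called labelled throughout. Of the microglial markers, 11 of 13 genes could be tested, and Cx3cr1 and P2ry12 were above background on no array. After scaling to the 75th percentile 6 of the 11 were higher in the labelled group (Itgam, Csf1r, Cd68, Tyrobp, Trem2 and Fcer1g), and 1, Tmem119, was lower, by 2.68 on the log2 scale (SE 0.18, limma adjusted p = 5.4e-05). Of all tested probes 31.1% were higher and 21.1% lower on that scale. By the brightest probe of each gene, 0 of the 11 were higher with quantile normalization, and their median difference without scaling was -0.21.

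Windows at the annotated starts of the receptor genes are shown for 3 members that differ in behaviour. Olfr282 and Olfr1386 lay among the 8 brightest and moved in opposite directions after scaling, and Olfr1099 was one of the 6 with the largest rise. RefSeq (GRCm38.p6) gave a window of 250 bases before to 50 bases after the annotated start for 273 of the 314 genes. In 70.7% of these 273 windows the annotated start was an ATG, compared with 5.83% of all 32851 windows, so that for most receptor genes the model begins at the start codon and the window need not hold the transcription start. Capitals mark TAATTA, the core of homeodomain sites such as those of Lhx2. It occurred on either strand in 17.9% of the members' windows, 18.3% of all olfactory receptor windows and 5.29% of all windows. CCCNNGGG, the core bound by Ebf factors, occurred in 4.40%, 3.04% and 13.7% of the same sets. In the 80 members' windows with no ATG at the annotated start the shares were 11.2% for CCCNNGGG and 16.2% for TAATTA. CCCNNGGG occurred in none of the 3 windows below, which lie at chr15:98437220-98437519 (plus strand), chr11:49469804-49470103 (plus strand) and chr2:86959407-86959706 (minus strand). The annotated start was an ATG for Olfr1099, and was not for Olfr282 and Olfr1386, so the 3 windows are not of 1 kind.
Olfr282: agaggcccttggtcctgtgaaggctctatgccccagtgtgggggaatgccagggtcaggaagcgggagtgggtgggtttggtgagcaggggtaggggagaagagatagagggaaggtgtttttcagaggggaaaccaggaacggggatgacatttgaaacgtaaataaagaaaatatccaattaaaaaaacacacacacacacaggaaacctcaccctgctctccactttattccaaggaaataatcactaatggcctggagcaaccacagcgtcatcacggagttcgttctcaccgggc
Olfr1386: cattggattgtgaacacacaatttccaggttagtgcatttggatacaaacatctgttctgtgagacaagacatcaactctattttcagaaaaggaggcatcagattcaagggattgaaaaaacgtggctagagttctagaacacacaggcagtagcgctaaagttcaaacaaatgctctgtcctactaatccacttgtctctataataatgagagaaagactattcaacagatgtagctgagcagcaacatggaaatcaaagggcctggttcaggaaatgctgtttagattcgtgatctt
Olfr1099: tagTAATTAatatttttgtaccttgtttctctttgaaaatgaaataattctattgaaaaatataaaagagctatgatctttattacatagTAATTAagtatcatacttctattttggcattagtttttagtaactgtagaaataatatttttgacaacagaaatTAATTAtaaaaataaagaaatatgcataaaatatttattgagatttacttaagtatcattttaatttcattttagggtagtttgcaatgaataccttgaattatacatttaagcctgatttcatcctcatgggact
TAATTA was found 3 times in the Olfr1099 window and was absent from the windows of Olfr282 and Olfr1386. It was also absent for the other large rises, Olfr767, Olfr985, Olfr1312, Olfr1043 and Olfr917. Among the 6 largest falls, ranked within the same members, it occurred for Olfr649 and Olfr978, and not for Olfr470, Olfr1391, Olfr389 and Olfr1272. A link between the motif and the differences was not tested.

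Most of the 315 probes were dim. Their mean processed intensity, the scanner's background-subtracted brightness, had a median of 49.9, with quartiles of 30.8 and 105 and a range of 10.5 to 23553. Only 9 probes reached 1000, and 83 reached 100. The median member ranked at the 12.4th percentile of signal among the 24824 tested probes, and 302 of the 314 tested members lay below the median of those probes. One further member, with too few values left after outlier spots were removed, was not tested. No member was saturated on any array.

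Detection followed the array as well as the group. Control arrays had 397, 385 and 255 olfactory receptor probes above background, and labelled arrays 447, 418 and 317, so the lowest count of each group came from the slide that held replicate 3. The groups overlapped, though on each slide the labelled counts were the higher. Of all probes matched to a gene, 78.2%, 77.3% and 72.5% were above background in controls and 78.7%, 75.6% and 73.1% in the labelled group. The lowest intensity that the software called well above background was 24.3 and 19.3 on the control and labelled arrays of that slide, and between 11.0 and 14.1 on the other 4 arrays. Among the members, 235 were above background on all 6 arrays, and 57 were above background everywhere but on control replicate 3. A further 6 passed on the labelled arrays only and 1 on the control arrays only. Members that passed through 1 group fell short of the flag on some array of the other, and differences over them carry that choice. Because the lowest signal called above background differed by array, such members need not be brighter in the group they passed through. Of the other 786 probes, 613 were above background on no array and 173 on some arrays, short of a whole group. The lowest mean signals inside the rule, relative to each array's 75th percentile, were log2 -7.01 for Olfr742 and -6.75 for Olfr1413, whereas the highest outside it were -5.65 for Olfr446 and -5.77 for Olfr1318, each above background on 2 arrays of each group.

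The unscaled brightness of the members was nearly the same in both groups. In controls their median log2 intensity was 5.62, 5.76 and 5.63, in the labelled samples it was 5.86, 5.64 and 5.59, and the groups overlapped. Over all tested probes the control medians of 9.67, 9.69 and 9.95 all exceeded the labelled medians of 9.05, 8.59 and 9.21. The 75th percentile of intensity, used here to scale the arrays, was 1617, 1627 and 1893 in controls and 1157, 856 and 1268 in the labelled group. The array's own ERCC control probes, designed against synthetic RNAs with no mouse counterpart, were chosen for comparison after these values had been seen. Of 96 such probes 34 were above background on all 3 arrays of a group, and their median log2 intensity was 5.66, 5.78 and 5.71 in controls and 6.03, 5.92 and 6.03 in the labelled group. Whether ERCC RNA was added to the samples is not given in the sources used here.

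The difference between the groups consequently depended on the scale. Without scaling, the median difference (labelled minus control) was 0.07 on the log2 scale over the 314 tested members, with quartiles of -0.23 and 0.30. Over all tested probes it was -0.52, with quartiles of -1.01 and -0.11, and over the ERCC control probes 0.16, with quartiles of -0.04 and 0.37 and 25 of 34 above 0. In limma at an adjusted p under 0.05, 26 members were higher, beside 2.38% of all tested probes, and 33 were lower, beside 44.2% of all tested probes. After each array's 75th percentile was subtracted, the median difference was 0.73 over the members, 0.15 over all tested probes and 0.83 over the ERCC control probes. On that scale 189 members (60.2%) were higher, beside 31.1% of all tested probes, and 9 (2.87%) were lower, beside 21.1%. With no detection filter, 254 of 1100 olfactory receptor probes (23.1%) were higher, beside 20.9% of 33471 probes matched to a gene. In that fit 12 (1.09%) were lower, beside 13.6%, and the medians were 0.49 and 0.29. Of the 786 olfactory receptor probes outside the rule, 12.7% were higher and 0.51% lower there. The higher share among the members thus goes with the choice by detection. With quantile normalization 146 members were higher, beside 19.4% of all tested probes, and 13 were lower, beside 23.6%, with medians of 0.56 and -0.02. The part of the lower overall brightness of the labelled arrays in these counts was not tested.

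The 235 members above background on all 6 arrays gave similar values to the whole set. Of the 234 tested, 139 (59.4%) were higher and 6 (2.56%) lower after scaling to the 75th percentile, beside 30.4% and 20.4% of the 23278 tested probes above background on all 6 arrays, and their median was 0.68, beside 0.14. Within the slide of replicates 1 and 2, the members' median scaled difference was 0.78 (290 of 314 above 0), and between the single pair of arrays on the other slide it was 0.63 (271 of 314 above 0). The unscaled medians on the same slides were 0.08 and 0.06. The members' scaled values varied by a median SD of 0.29 in each group (n = 3).

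At each of 3 signal levels compared, the members' median difference lay above that of the other tested probes. In the 99 members with a mean scaled signal between -6 and -5 the median scaled difference was 0.75, and 0.50 in 1909 other tested probes at that level. Between -3 and -2 it was 0.74 in 26 members and -0.05 in 2421 other probes. In the 12 members above -1 it was 0.51, beside 0.15 in 12310 other probes. With background correction by normexp and quantile normalization, the medians at the same levels were 0.16, 0.54 and 0.43 for the members, and 0.09, -0.07 and -0.04 for the other probes. With quantile normalization alone the members' medians were 0.52, 0.68 and 0.46, so that among these 3 levels the dimmest probes moved most with the background correction.

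The brightest member was a probe of Olfr1033, with log2 intensities of 14.34, 14.54 and 14.80 in controls and 14.46, 14.35 and 14.66 in the labelled group. The groups overlapped, and the difference was -0.07 without scaling, 0.01 after quantile normalization and 0.59 (SE 0.14, limma adjusted p = 0.0094) after scaling to the 75th percentile. Olfr821 followed with 12.69, 12.84 and 13.04 in controls and 12.66, 12.20 and 13.06 in the labelled group. Its groups overlapped as well, and its difference was -0.22 unscaled and 0.45 scaled (SE 0.13, limma adjusted p = 0.024). Olfr571, from the chromosome 7 cluster that holds the fish-like class I receptors, had 11.85, 12.23 and 11.92 in controls and 11.68 and 11.82 on the lower 2 labelled arrays, with the highest between the control values. It differed by -0.17 unscaled and by 0.50 scaled (SE 0.18, limma adjusted p = 0.047), and its groups overlapped on both scales. After quantile normalization Olfr821 and Olfr571 differed by 0.15 and 0.33 (limma adjusted p = 0.41 and 0.17). For Olfr1033, Olfr821 and Olfr571 the sign turned with the scaling. The scaled call of Olfr821 was also lost without any single array other than labelled replicate 2 (limma adjusted p = 0.0507 to 0.0751), and that of Olfr571 without control replicate 1 or 3 or labelled replicate 1 or 2 (limma adjusted p = 0.115 to 0.142).

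Olfr1347, Olfr1410 and Olfr282 were higher under both scalings. Olfr1347 had 10.81, 10.90 and 11.38 in controls and 11.09, 11.05 and 11.66 in the labelled group, with overlap before scaling, and rose by 0.90 after it (SE 0.17, limma adjusted p = 0.0035). Olfr1410 had 10.59, 10.78 and 10.84 in controls and 10.79, 10.67 and 10.88 in the labelled group, and rose by 0.71 (SE 0.14, limma adjusted p = 0.0049). Olfr282 had 9.86, 9.91 and 10.43 in controls and 10.49, 10.35 and 10.52 in the labelled group, and rose by 1.05 (SE 0.16, limma adjusted p = 0.0016). After quantile normalization the differences of these 3 were 0.84, 0.68 and 1.06, and without scaling 0.24, 0.04 and 0.39, with limma adjusted p of 0.43, 0.83 and 0.13.

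Olfr545 and Olfr1386 were dimmer on every labelled array before scaling. Olfr545, another class I receptor, had 10.71, 10.73 and 10.77 in controls and 10.00, 9.97 and 10.19 in the labelled group. Its difference was -0.68 unscaled (limma adjusted p = 0.0067) and -0.02 scaled (limma adjusted p = 0.92), so its call depended on the scale. Olfr1386 had 10.82, 10.82 and 10.89 in controls and 9.84, 9.41 and 9.67 in the labelled group. It fell by 1.20 unscaled (limma adjusted p = 0.00099) and fell by 0.54 scaled (SE 0.14, limma adjusted p = 0.012), and was the only one of the 8 brightest to pass the threshold as lower after scaling.

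The largest scaled falls were measured on dim probes. Olfr470 had log2 intensities of 6.87, 7.40 and 7.55 in controls and 5.30, 4.11 and 5.17 in the labelled group, which did not overlap. It fell by 1.75 scaled (SE 0.22, limma adjusted p = 0.00077) and fell by 2.42 unscaled. Olfr649 had 7.05, 7.22 and 6.81 in controls and 5.66, 4.88 and 5.47 in the labelled group, and fell by 1.03 scaled (SE 0.19, limma adjusted p = 0.0035). Olfr1272 had 8.18, 8.32 and 8.02 in controls and 6.87, 6.69 and 6.72 in the labelled group, and fell by 0.75 scaled (SE 0.19, limma adjusted p = 0.012). These 3 receptors, unlike most members, were lower on every labelled array on both scales. Olfr978 was likewise detected on all 6 arrays and fell by 0.61 (SE 0.15, limma adjusted p = 0.011). Olfr1391 and Olfr389 were above background on 3 control arrays and 1 labelled array, and their scaled differences of -1.53 and -0.87 are given with no test. These falls were smaller or turned with normexp and the 75th percentile. That setting gave -0.54 for Olfr470, -0.25 for Olfr649 (limma adjusted p = 0.168), -0.38 for Olfr1272, -0.06 for Olfr1391, 0.24 for Olfr389 and 0.19 for Olfr978. The median over the members was 0.60 there. With normexp and quantile normalization the same probes gave -0.90, -0.57, -0.56, -0.50, -0.22 and -0.26 in that order, so none turned.

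The 6 largest scaled rises were ranked within the same members, and 1 of these probes, Olfr985, was above background on all 6 arrays. It had log2 intensities of 5.14, 5.53 and 5.16 in controls and 6.11, 6.22 and 6.33 in the labelled group, with no overlap, and rose by 1.61 scaled (SE 0.20, limma adjusted p = 0.00074) and by 0.94 unscaled (limma adjusted p = 0.0034). Olfr767 was above background on 1 control array, with 4.85, 2.86 and 4.19 in controls and 5.20, 5.80 and 5.16 in the labelled group. Its scaled difference of 2.09, and those of Olfr1312, Olfr1043, Olfr917 and Olfr1099 between 1.52 and 1.59, come from probes that were above background on 2 control arrays or fewer, and are given with no test. After normexp and quantile normalization the difference of Olfr985 was 0.46 and that of Olfr767 was 0.39.

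For members above background in 1 group only, the difference is a bound, taken from the mean of the bright group over the mean, in the other group, of the lowest signal called above background on each array or the probe's own signal where that was higher. Olfr1288 had log2 intensities of 3.35, 2.64 and 2.55 in controls and 4.27, 4.39 and 4.91 in the labelled group, and after scaling to the 75th percentile was at least 2.25-fold higher there, or at least 1.42-fold without scaling. Olfr812, Olfr1364, Olfr773, Olfr198 and Olfr1250 were at least 2.55-fold, 2.51-fold, 1.94-fold, 1.84-fold and 1.74-fold higher in the labelled group after scaling, whereas without it the bounds of the first 4 were 1.61-fold, 1.58-fold, 1.22-fold and 1.16-fold, and that of Olfr1250 was 0.14 on the log2 scale. The size of these bounds thus depended on the scale. Olfr742 had 4.54, 4.40 and 5.57 in controls and 1.25, 2.03 and 2.59 in the labelled group, and was at least 1.32-fold lower in the labelled group after scaling and at least 2.09-fold lower without it. All 7 probes owe their place to the group in which they were bright, and the RefSeq annotation places a further gene, 4930413M19Rik, across Olfr742.

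Where a gene had a further probe, the probes of that gene mostly disagreed on whether it was detected. Among the 14 member genes with 2 probes, both passed only for Olfr1333, and for the other 13 the second probe did not. That second probe was above background on no array for 10 genes, on 1 array for Olfr467 and Olfr1414 and on 2 arrays for Olfr1033. The passing probe of Olfr1033, designed to the predicted transcript XM_006499557, had a mean intensity of 23553, while the probe for the curated transcript NM_146578 had 14.9. That second probe had log2 intensities of 3.41, 3.80 and 4.11 in controls and 4.11, 3.92 and 4.03 in the labelled group, and was above background on labelled arrays only. Olfr1036 had 7.15, 7.51 and 7.23 in controls and 7.45, 7.19 and 7.02 in the labelled group by one probe, and 1.25 to 2.87 by the other.

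Olfr1316, whose passing probe had 6.44, 6.68 and 6.62 in controls and 5.65, 5.24 and 5.30 in the labelled group, read 1.42 to 2.50 on its second probe. The passing probe fell by 0.52 scaled (SE 0.17, limma adjusted p = 0.033), a call lost without control replicate 1 or 2 or labelled replicate 1 or 3 (limma adjusted p = 0.0518 to 0.114), and the second was not tested. Both probes of Olfr1333 target the same transcript, and their scaled differences were 0.73 and 0.06. Both probes passed for 1 of the 14 genes (7.14%). Of 980 other genes with 2 probes whose brighter probe lay in the same range of mean scaled signal, -5.96 to -3.15, both passed for 393 (40.1%). Over 5551 such genes at any level the share was 82.7%. These shares describe the probes and were not tested, and Olfr1033 was left out in setting the range.

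The members were spread over the genome. Olfactory receptor genes less than 1000000 bases apart formed 49 clusters in the RefSeq annotation, and 34 of them held members. In the 15 clusters with 20 or more probes, the share of probes that were members ranged from 16.7% to 52.2%, around 28.6% over the family. The cluster from Olfr543 to Olfr692, which includes the class I receptors, held 46 members of 125 probes (36.8%), with a median scaled difference of 0.80. The largest, from Olfr987 to Olfr1274, held 54 of 222 (24.3%), with a median of 0.71. The highest share among these 15 belonged to the cluster from Olfr30 to Olfr225, with 12 of 23, and smaller clusters reached higher shares, such as 13 of 18 from Olfr1396 to Olfr1380. Among those 15 clusters the median scaled difference ran from 0.33 to 1.01 and the unscaled one from -0.33 to 0.35. Gene length did not set the members apart in these counts, since 28.0% of probes to gene models of up to 1200 bases and 31.8% of those to longer models were members.

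Other chemosensory receptor families gave values on either side of the olfactory receptors. Of the vomeronasal receptor probes 30 of 171 Vmn1r (17.5%) and 28 of 103 Vmn2r (27.2%) met the same detection rule, beside 28.6% of olfactory receptor probes and 74.4% of all probes matched to a gene. Their median scaled differences were 0.56 and 0.69, and the unscaled ones -0.10 and 0.02. Of the trace amine-associated receptors 5 of 14 probes passed, with medians of 0.76 scaled and 0.10 unscaled, and of the taste receptors 12 of 39, with 0.47 and -0.20. After scaling 14 of the 30 Vmn1r, 17 of the 28 Vmn2r, 4 of the 5 trace amine and 6 of the 12 taste receptor probes were higher, beside 31.1% of all tested probes. Only Vmn1r, with 1 probe, and Vmn2r, with 3, had probes that were lower, beside 21.1%.

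Of 19 genes for olfactory signal transduction 17 could be tested, each by its brightest tested probe. After scaling 9 were higher, beside 31.1% of all tested probes, and 2 lower, beside 21.1%, and after quantile normalization 5 were higher, beside 19.4%, and 3 lower, beside 23.6%. The median difference was 0.43 scaled, 0.36 with quantile normalization and -0.23 unscaled, so its sign turned with the scaling. Grk3, a kinase that desensitises receptors, had log2 intensities of 5.64, 5.88 and 5.92 in controls and 6.85, 6.41 and 6.51 in the labelled group, and rose by 1.44 scaled (SE 0.16, limma adjusted p = 0.00051). Stoml3, a stomatin-like protein of olfactory cilia, rose by 0.91 scaled (SE 0.15, limma adjusted p = 0.0025). Gnal, the olfactory G protein subunit, had 6.18, 6.05 and 6.46 in controls and 5.41, 4.74 and 5.38 in the labelled group, and fell by 0.39 scaled (SE 0.13, limma adjusted p = 0.033). Pde4a, a phosphodiesterase that degrades cyclic AMP, fell by 0.76 scaled by its brighter probe (SE 0.13, limma adjusted p = 0.0026).

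Rtp1, which carries receptors to the cell surface, was above background on no array, and Ano2, the chloride channel of the cilia, on 1. Adcy3, the cyclase, had 6.42, 6.63 and 6.63 in controls and 6.33, 6.08 and 5.78 in the labelled group, with a scaled difference of 0.17 (SE 0.22, limma adjusted p = 0.55). Of the 7 regulators of receptor choice 5 could be tested. After scaling 1 was higher, beside 31.1% of all tested probes, and 0 were lower, beside 21.1%. The one that rose was Ebf1, by 0.73 (SE 0.19, limma adjusted p = 0.014). It had 7.69, 7.76 and 7.33 in controls and 7.66, 7.46 and 7.85 in the labelled group, with overlap and an unscaled difference of 0.07. The homeodomain factor Lhx2 differed by 0.07 scaled (SE 0.16, limma adjusted p = 0.71), and Emx2 was above background on no array. After quantile normalization 1 regulator was higher, beside 19.4%, and 1 lower, beside 23.6%. The lower one was Lbr, at -0.47 (limma adjusted p = 0.034).

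Of 12 marker genes of olfactory sensory neurons 8 could be tested, 3 of them higher and 1 lower after scaling, beside 31.1% and 21.1% of all tested probes. The unscaled intensities of the 8 summed to between 595 and 644 on the control arrays and between 480 and 533 on the labelled arrays. The median difference of the 8 was -0.25 unscaled and 0.41 scaled. Omp, the defining marker of mature sensory neurons, had 5.64, 6.03 and 5.83 in controls and 5.68, 5.38 and 5.64 in the labelled group. Rtp2, which like Rtp1 carries receptors to the cell surface, had 7.77, 7.91 and 7.43 in controls and 7.48, 7.53 and 7.40 in the labelled group by 1 of its 2 probes. Rtp1, Gap43 and Ncam2 were above background on no array. The unscaled intensities of the 11 tested microglial markers summed to between 162830 and 189730 in controls and between 145100 and 184970 in the labelled group. Of these markers 6 were higher and 1 lower after scaling, while after quantile normalization Tmem119 alone passed by the brightest probe of each gene. Of 5 neuron markers 4 were tested, 2 of them higher and 1 lower after scaling, and of 4 astrocyte markers 3 were tested, 2 of them higher. Snap25, 1 of the higher neuron markers, had log2 intensities of 15.11 to 15.68 by 1 probe. That probe differed by 0.08 after quantile normalization (limma adjusted p = 0.59). The other Snap25 probe, at 1.13 to 2.28, was above background on no array. The part of these markers in the members' values was not tested.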

How the data were processed

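The authors deposited scanner output in which Agilent Feature Extraction (11.5.1.1) had measured the intensity of 62976 spots and subtracted background, with no normalization between arrays, and a table of log2 values that the authors had normalized in GeneSpring, which was used as an alternative. Here the log2 intensity of each array was reduced by its 75th percentile over 59305 spots other than controls, outlier spots were left out and spots of a probe averaged. Probes were named through the accession in the files (33767 of 56605 matched a RefSeq gene of GRCm38.p6, while the design used mm9, so no gene coordinates are given apart from the RefSeq windows). A probe was tested if well above background on all 3 arrays of a group, with at least 2 values in each. limma (3.58.1, R 4.3.3) fitted the 6 arrays, and p-values were adjusted by Benjamini-Hochberg over all 24824 probes, with a threshold of 0.05. With 3 arrays against 3, an exact permutation test cannot go below p = 0.1, so none was run. Fitting was tested on simulated data. The number of arrays limits the precision.

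Olfactory receptor probes were those whose gene has a symbol or synonym of the Olfr series. The probes, gene lists and comparisons were chosen with earlier results of these data known. Probes named are the 8 brightest, the 6 largest rises and falls past the threshold among those detected in both groups, up to 4 detected in 1 group only, the genes with several probes and those at the edge of the rule. The other 3 probes detected in 1 group only and the ERCC probes were added after their values were seen. Alternatives covered scaling, background correction, filters, blocks and left-out arrays. Same-numbered samples of the groups did not all deviate together (correlations of -0.20, 0.02 and 0.60), so replicate numbers were not used as pairs.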

Additional observations from a re-analysis of the deposited data

How the results depend on the processing

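The precision is set by 3 arrays a group and by signals close to background. The members' median difference stayed above 0 under every alternative that was run, but was 0.07 with no scaling between arrays and 0.22 with normexp and quantile normalization. The count of members past the threshold, 198 as reported, was 59 with no scaling, 96 with normexp and quantile normalization, 56 of 82 with a filter on the mean of all arrays, and 69 with a fold of at least 2 required as well, and lay within 1.5 times of 198 under the other alternatives. Leaving out each array in turn gave 146 to 234 and medians of 0.61 to 0.87. The share of all tested probes past the threshold, 52.25% as reported, was 46.6% with no scaling and 38.45% with normexp and quantile normalization. With 59 and 96 of 314 tested members past it, members passed less often than all tested probes in both settings. The share over all tested probes was 34.5% with no filter, 14.0% with the fold required and 39.8% to 52.8% without 1 array. Their median difference was -0.02 with the authors' log2 table, with quantile normalization and with normexp and quantile normalization, -0.0030 with the 75th percentile over probes above background on all 6 arrays, -0.52 with no scaling, 0.04 with the median in place of the percentile, 0.10 with the filter on the mean, 0.29 with no filter, 0.25 with unmatched probes kept, 0.23 with 1 probe per gene, and 0.20 both with normexp and with the less strict flag for a positive and significant signal. With that flag 586 olfactory receptor probes would have been members. With the replicate number as a block 243 members passed, and 202 with quantile normalization and the block. That last setting was chosen after seeing the data, and no pairing is given by the design. Shares of all tested probes past the threshold under the block and under the filter on the mean are not given here. The members' counts in those settings are therefore no result about the members.

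Without scaling the difference turned for Olfr1033 (-0.07), Olfr821 (-0.22), Olfr571 (-0.17), Olfr1036 (-0.08), Olfr75-ps1 (-0.35) and the brighter probe of Olfr1333 (-0.60). With normexp it turned for Olfr389 (0.24), Olfr978 (0.19), Olfr742 (0.10) and Olfr1316 (0.03). Olfr545, at -0.02, was 0.01 with normexp, with normexp and quantile normalization and with no background correction, and -0.14 to 0.06 without 1 array. The brighter Olfr1333 probe, at 0.06, was -0.12 with the authors' table, -0.09 with the percentile over detected probes, -0.05 with the median, -0.07 with normexp and quantile normalization, -0.13 with quantile normalization with or without the replicate block, and -0.10 to 0.26 without 1 array. The causes were not tested. Choosing members by the array's own gene names was not run, since the files used here hold only accessions.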
